A study of Rattus norvegicus with 18 samples.

Results

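The 10 genes described here code for the signals and receptors that keep kidney blood vessels in place, together with 3 proteins that mark the cells lining them. They are Vegfa (ENSMUSG00000023951), Kdr (ENSMUSG00000062960), Flt1 (ENSMUSG00000029648), Tek (ENSMUSG00000006386), Tie1 (ENSMUSG00000033191), Angpt1 (ENSMUSG00000022309), Angpt2 (ENSMUSG00000031465), Pecam1 (ENSMUSG00000020717), Cdh5 (ENSMUSG00000031871) and Nos3 (ENSMUSG00000028978). They were chosen by name for their roles, with earlier results of these data known, and their rows were found by these mouse Ensembl identifiers. All 10 were among the 55335 identifiers of the count table and among the 19233 that passed the filter on low counts. Kidney RNA was sequenced in 18 libraries of 3 groups, 6 animals in each by the series description. Treated animals (Treat) had the diabetic nephropathy model and were given TSK by mouth, 500 mg/kg per day for 4 weeks. Model animals (DN) had been made diabetic by high-fat feeding plus STZ, an agent toxic to insulin-producing cells, and received no TSK. Control animals (Ctrl) had ordinary feed and the solvent by gavage. The labels call the animals Rattus norvegicus and give no strain, sex or age, while the identifiers are those of the mouse, as are the builds named in the processing notes. Rat reads with mismatches to the mouse genome could have been lost to different degrees in different genes. Each gene is therefore compared only with itself between groups, or as a ratio whose change between groups is read.

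VEGF-A is a secreted growth factor that the kidney makes chiefly in podocytes and tubule cells, and it acts on the endothelial cells of the glomerulus and of the capillaries around the tubules. Those cells carry its receptors, KDR (VEGFR2), which passes on most of its growth and survival signal, and FLT1 (VEGFR1), which binds VEGF-A tightly and also exists as a soluble decoy. Angiopoietin 1, made by cells around the vessels, activates the endothelial receptor TEK (TIE2) and keeps vessels quiet and tight. Angiopoietin 2, released by endothelial cells, mostly opposes it there. In diabetic nephropathy these pathways are studied for the loss of capillaries and for leaky glomeruli.

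Library totals ranged from 22040987 to 35275498 counts. Levels are given as CPM, the counts of a gene scaled to a common library total with TMM factors. The lowest count of any of the 10 genes in any library was 49, for Nos3, so that every library held each endothelial marker. Some libraries stood apart. Treat library 1 (78.8) and Ctrl library 4 (54.2) lay at one end of the second principal component of all genes, on which the other libraries reached at most 25.2. The 5 controls other than library 4 were also set apart from every other library by 6 identifiers that differed at least 10-fold, none of them among these 10 genes. The identifiers could not be matched to names in the rat gene table used here, so markers of podocytes, pericytes, tubule and blood cells were not measured beside these genes. Whether a lower level reflects fewer endothelial cells or less RNA per cell cannot be told apart in whole kidney.

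In DN kidneys 7 of the 10 genes fell relative to Ctrl and none rose. These were both VEGF receptors, Tek and Tie1, Angpt1, and the junction genes Pecam1 and Cdh5, which stood at 28.4% to 47.9% of their control level. Vegfa, Angpt2 and Nos3 did not pass the test. Across all genes 15.3% were lower in DN and 32.2% changed in either direction (edgeR quasi-likelihood test, Benjamini-Hochberg adjusted p under 0.05). For the same 7 genes no DN library reached the lowest control, which was so for 7.89% of all genes. The median log2 fold change was -1.11 over the 10 genes and 0.0079 over all genes tested.

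In Treat kidneys 9 of the 10 genes were lower than in Ctrl, all but Vegfa, against 21.9% of all genes (44.9% in either direction). For 5 of them (Kdr, Flt1, Tek, Angpt1 and Pecam1) no treated library reached the lowest control, as for 13.2% of all genes. The median log2 fold change was -1.60, against 0.02 over all genes. Between Treat and DN only Angpt1 passed the test, lower in Treat, where 0.858% of all genes were lower and 1.39% changed. The median was -0.44 over the 10 genes and -0.0051 over all genes. The comparisons share libraries: the controls serve for both DN and Treat, and the DN libraries serve in 2 of the 3.

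**Figure D1:**
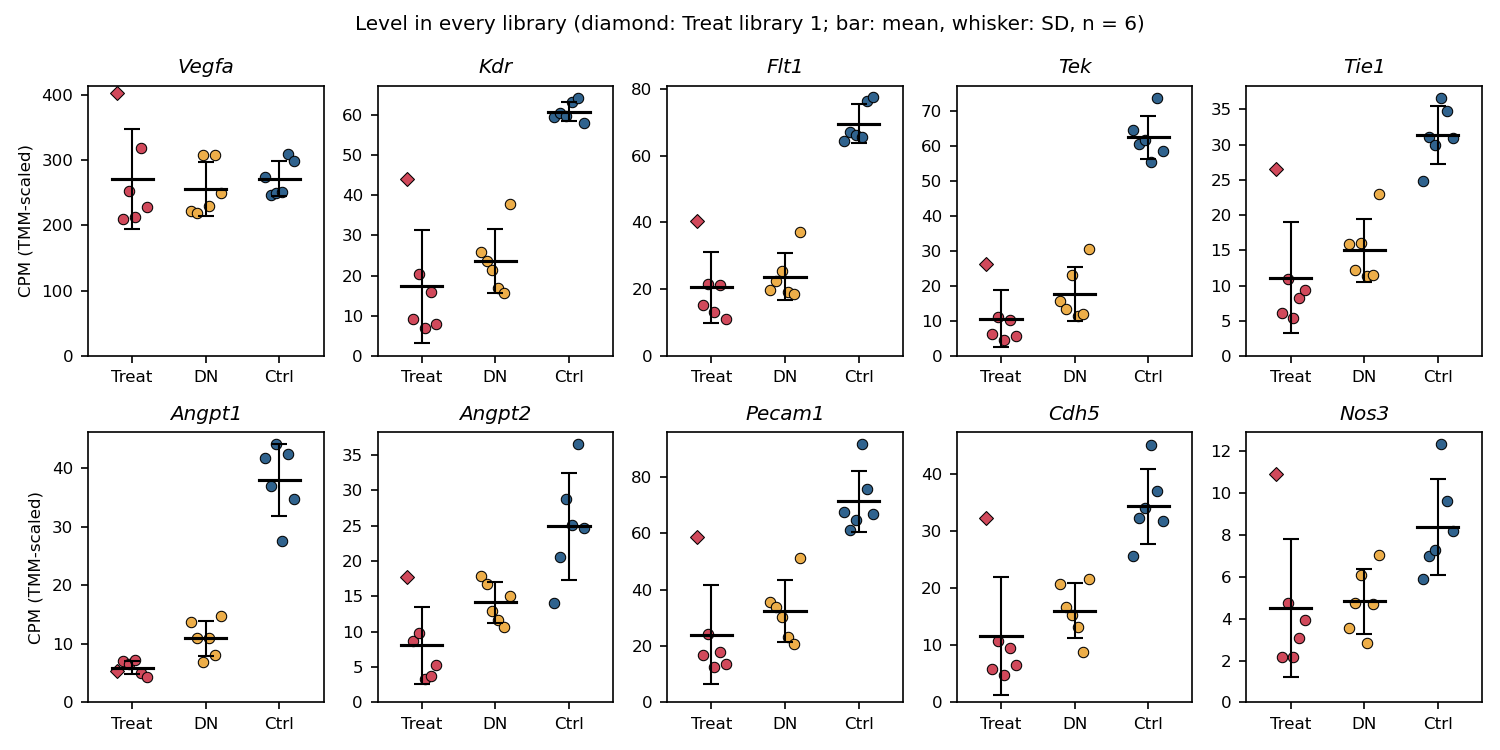
TMM-scaled CPM of each gene in every library, with Treat, DN and Ctrl from left to right; bars are means and whiskers SD over 6 libraries, and the diamond is Treat library 1. Vegfa overlaps between all groups, with means of 271, 256 and 271 CPM in Treat, DN and Ctrl. For Kdr, Flt1, Tek, Angpt1 and Pecam1 every Treat and DN library lies below every control.

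The ligand Vegfa did not differ detectably between any 2 groups. Its lowest, median and highest values were 210, 241 and 403 CPM in Treat, 219, 239 and 308 CPM in DN, and 247, 262 and 309 CPM in Ctrl. The 3 groups overlapped, although Treat library 1, at 403 CPM, and Treat library 5, at 318 CPM, lay above every DN and control library. The log2 fold change of DN over Ctrl was -0.09 (SE 0.15, 95% interval -0.40 to 0.23, adjusted p = 0.693). That of Treat over Ctrl was -0.0034 (95% interval -0.31 to 0.31, adjusted p = 0.987), and that of Treat over DN was 0.08 (95% interval -0.23 to 0.39, adjusted p = 0.834).

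Both VEGF receptors fell. Kdr measured 15.7, 22.5 and 37.9 CPM (lowest, median, highest) in DN and 57.9, 60.1 and 64.1 CPM in Ctrl. The 6 controls were tightly grouped, with a coefficient of variation of 3.86%, against 33.9% in DN and 80.9% in Treat. The log2 fold change of DN over Ctrl was -1.36 (SE 0.35, adjusted p = 0.0063). Flt1 measured 18.7, 21.1 and 37.1 CPM in DN and 64.5, 66.7 and 77.5 CPM in Ctrl, with no overlap (log2 fold change -1.55, SE 0.25, adjusted p = 0.000136). In Treat, Kdr measured 6.91, 12.5 and 44.0 CPM and Flt1 11.1, 18.3 and 40.5 CPM. All treated libraries lay below every control for both genes (Treat over Ctrl, log2 fold change -1.80 for Kdr and -1.76 for Flt1; adjusted p = 0.000556 and 2.67e-05). Treat did not differ detectably from DN for either (Kdr -0.44, 95% interval -1.17 to 0.29; Flt1 -0.21, 95% interval -0.72 to 0.30). Counts were per gene, so full-length and soluble Flt1 were counted together.

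Promoter sequences are shown for Kdr, Flt1 and Tie1, the receptor genes of this group with an entry in the RefSeq promoter table of the rat (build GRCr8), because these genes moved together. Each runs from 250 bases before to 50 bases after the annotated start, 5′ to 3′ on the gene's strand, and capitals mark GGAA on either strand (printed as TTCC where it lies on the other), the core that ETS factors of endothelial cells bind. The windows are chr14:32571813-32572112 on the plus strand for Kdr, chr12:12333180-12333479 on the plus strand for Flt1 and chr5:137304932-137305231 on the minus strand for Tie1.
Kdr: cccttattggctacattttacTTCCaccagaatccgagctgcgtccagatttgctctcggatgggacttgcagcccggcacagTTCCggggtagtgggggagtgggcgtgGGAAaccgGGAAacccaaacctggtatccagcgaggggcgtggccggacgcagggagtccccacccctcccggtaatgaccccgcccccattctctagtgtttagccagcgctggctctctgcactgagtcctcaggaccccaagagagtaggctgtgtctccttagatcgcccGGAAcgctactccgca
Flt1: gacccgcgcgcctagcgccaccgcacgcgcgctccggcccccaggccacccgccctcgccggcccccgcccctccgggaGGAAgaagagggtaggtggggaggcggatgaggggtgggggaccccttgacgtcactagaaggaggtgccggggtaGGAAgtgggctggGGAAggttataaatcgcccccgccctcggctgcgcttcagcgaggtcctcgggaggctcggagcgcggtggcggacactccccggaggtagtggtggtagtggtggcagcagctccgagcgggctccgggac
Tie1: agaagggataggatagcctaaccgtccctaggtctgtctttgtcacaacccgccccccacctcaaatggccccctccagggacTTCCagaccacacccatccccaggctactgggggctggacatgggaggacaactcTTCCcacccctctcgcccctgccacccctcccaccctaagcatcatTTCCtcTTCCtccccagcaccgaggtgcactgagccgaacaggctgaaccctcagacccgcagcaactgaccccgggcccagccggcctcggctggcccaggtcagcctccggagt
The core occurs 5 times in the Kdr window, 3 times in that of Flt1 and 4 times in that of Tie1. It also occurs 4 times in the window of Nos3, and 4 and 3 times in those of Vegfa, genes that did not pass the test in DN. It is found in 95.8% of the 33469 promoters of the same length, with a median of 3 matches. The longer forms CAGGAAG and CCGGAAG, searched on both strands and found in 20.1% of promoters, are not in the windows of the 5 genes with an entry (these 3, Vegfa and Nos3). The hypoxia-response core, ACGTG or GCGTG on either strand, lies in the Kdr and Flt1 windows and in 41.6% of all promoters, and these letters are not in the windows of Vegfa, Tie1 or Nos3. Matches describe the letters only, and no binding was measured.

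The angiopoietin receptor Tek stood at 28.4% of its control level in DN. It measured 11.5, 14.6 and 30.7 CPM in DN and 55.6, 61.3 and 73.7 CPM in Ctrl (log2 fold change -1.82, SE 0.34, adjusted p = 0.000656). In Treat it measured 4.46, 8.28 and 26.3 CPM, which was 17.2% of control (Treat over Ctrl, log2 fold change -2.54, SE 0.36, adjusted p = 2.43e-05). All treated and DN libraries lay below all controls. Treat over DN did not pass the test for Tek (log2 fold change -0.73, adjusted p = 0.299). Tie1, a related receptor without a clear ligand of its own that modifies TEK signalling, also fell. It measured 11.3, 14.1 and 23.0 CPM in DN and 24.8, 31.1 and 36.7 CPM in Ctrl (log2 fold change -1.06, SE 0.30, adjusted p = 0.0111). In Treat it measured 5.42, 8.73 and 26.6 CPM, and Treat library 1 alone reached into the control range (Treat over Ctrl, log2 fold change -1.50, adjusted p = 0.000692). Treat over DN did not pass for Tie1 either (log2 fold change -0.44, adjusted p = 0.5).

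Angpt1, the ligand that activates TEK, fell in DN and was lower again in Treat. It measured 4.40, 6.00 and 7.16 CPM in Treat, 6.97, 11.1 and 14.8 CPM in DN, and 27.7, 39.4 and 44.1 CPM in Ctrl. Every treated and every DN library lay below every control, and all treated libraries lay below the DN median, with only DN library 3 (6.97 CPM) inside the treated range. The log2 fold change was -1.79 for DN over Ctrl (SE 0.18, adjusted p = 8.68e-07) and -2.68 for Treat over Ctrl (SE 0.18, adjusted p = 1.08e-08). Among all genes tested, 1.18% and 0.582% had a lower log2 fold change in these comparisons. For Treat over DN it was -0.88 (SE 0.18, 95% interval -1.25 to -0.51, adjusted p = 0.0173). That last call ended in 3 of 29 alternative settings, among them with only the 12 libraries compared in the fit (adjusted p = 0.0575) and without DN library 6 and Treat library 1 together (adjusted p = 0.0558, an alternative chosen after the data had been seen).

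Angpt2, the partial antagonist of Angpt1 at TEK, measured 10.6, 14.0 and 17.9 CPM in DN and 14.0, 24.9 and 36.5 CPM in Ctrl. The groups overlapped through Ctrl library 1, the lowest control, and the difference did not pass the test (log2 fold change -0.82, SE 0.32, adjusted p = 0.0609). It did pass in 9 of 29 alternative settings, among them DESeq2 (adjusted p = 0.03). In Treat it measured 3.24, 6.97 and 17.8 CPM and was lower than in Ctrl (log2 fold change -1.62, SE 0.33, adjusted p = 0.000775), with Treat library 1 inside the control range. Treat over DN was -0.81 (95% interval -1.49 to -0.12) and did not pass the test (adjusted p = 0.23).

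Pecam1 (CD31) and Cdh5 (VE-cadherin), adhesion proteins of endothelial junctions and standard markers of these cells, both fell in DN. Pecam1 measured 20.6, 32.0 and 51.3 CPM in DN and 61.1, 67.2 and 91.4 CPM in Ctrl (log2 fold change -1.13, SE 0.31, adjusted p = 0.0102). Cdh5 measured 8.80, 16.0 and 21.6 CPM in DN and 25.6, 33.2 and 45.1 CPM in Ctrl (log2 fold change -1.09, SE 0.36, adjusted p = 0.0268). Neither gene overlapped between DN and Ctrl. The call on Cdh5 was close to the threshold and ended in 6 of 29 alternative settings (highest adjusted p = 0.153). In Treat, Pecam1 measured 12.4, 17.3 and 58.7 CPM and Cdh5 4.85, 8.10 and 32.3 CPM. Both were lower in Treat than in Ctrl, although Cdh5 in Treat library 1 lay within the control range (log2 fold change -1.57 for Pecam1, adjusted p = 0.000708, and -1.56 for Cdh5, adjusted p = 0.00227). Neither differed detectably between Treat and DN (log2 fold change -0.44 for Pecam1, adjusted p = 0.521, and -0.46 for Cdh5, adjusted p = 0.563).

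Nos3 is the endothelial nitric oxide synthase, which makes the vessel-relaxing gas NO, and its difference in DN did not pass the test. It measured 2.85, 4.74 and 7.05 CPM in DN and 5.91, 7.75 and 12.3 CPM in Ctrl, with overlap (log2 fold change -0.80, SE 0.34, adjusted p = 0.0803). It did pass in 6 of 29 alternative settings, among them DESeq2 (adjusted p = 0.0478). In Treat it measured 2.16, 3.51 and 10.9 CPM and was lower than in Ctrl (log2 fold change -0.90, SE 0.34, adjusted p = 0.0392). This call ended in 13 of 29 alternative settings (highest adjusted p = 0.103). Treat did not differ detectably from DN (log2 fold change -0.10, adjusted p = 0.917).

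**Figure D2:**
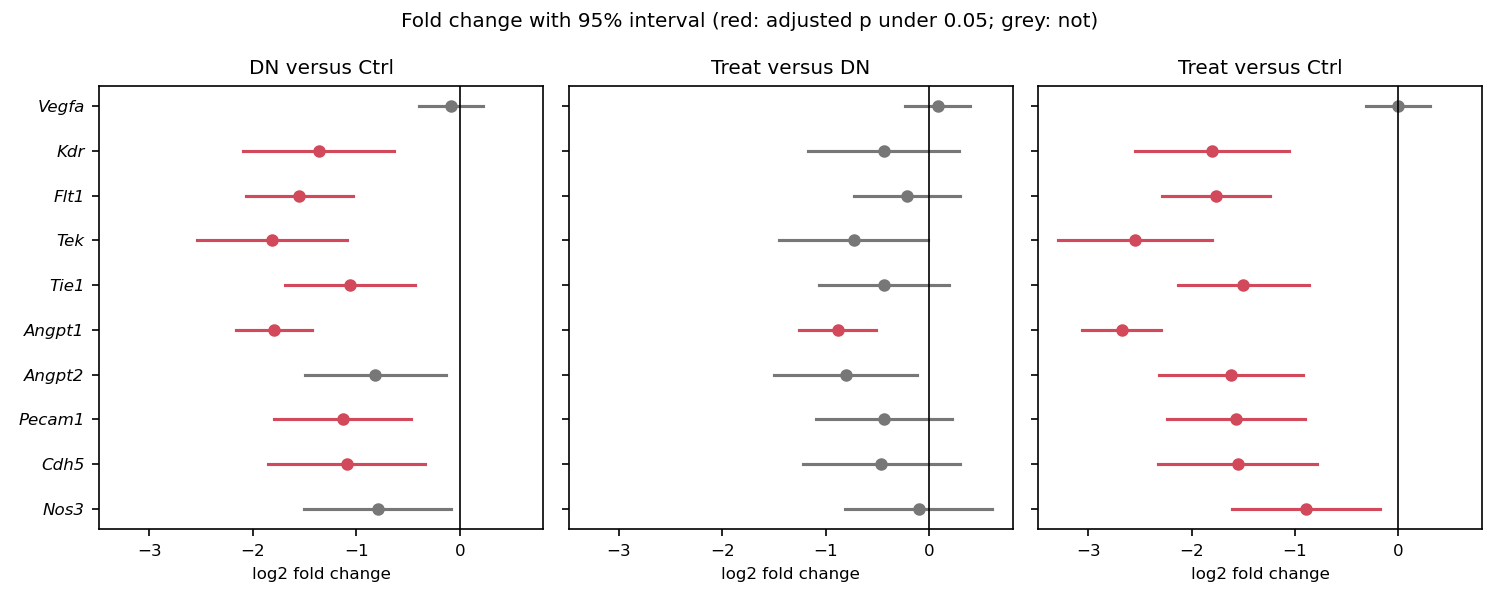
Log2 fold changes of the 10 genes from the edgeR fit over all genes, with 95% intervals, for DN versus Ctrl, Treat versus DN and Treat versus Ctrl; red marks an adjusted p under 0.05. The interval of Vegfa spans 0 in each panel, while 7 genes are red and below 0 in the first panel, only Angpt1 (-0.88) in the second, and 9 in the third.

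Treat library 1 stood apart from the other treated libraries. It held the highest treated value for 9 of the 10 genes and lay above every DN library for 7 of them. How many of all genes did so in this library was not counted. Pecam1 stood at 58.7 CPM there, against 17.0 ± 4.73 CPM in the other 5 treated libraries (SD), and Cdh5 at 32.3 CPM against 7.52 ± 2.52 CPM. Angpt1 was the exception, with 5.40 CPM in library 1 and 6.05 ± 1.23 CPM in the other 5. Leaving library 1 out lowers by construction the treated means of the 9 genes for which it was highest. Calls made without it are therefore no independent support. Without library 1, 6 genes were lower in Treat than in DN, where 2.29% of all genes changed in either direction (140 higher and 306 lower). They were Tek (log2 fold change -1.22, adjusted p = 0.0206), Cdh5 (-1.09, adjusted p = 0.0191), Angpt2 (-1.20, adjusted p = 0.0306), Pecam1 (-0.93, adjusted p = 0.0265), Tie1 (-0.91, adjusted p = 0.0228) and Angpt1. Kdr and Flt1 did not pass without library 1 either, at -0.97 (adjusted p = 0.0542) and -0.52 (adjusted p = 0.164). In those 5 libraries 9 of the 10 genes lay below every control. The matching share of all genes was not computed for the 5 libraries. It was 13.2% with all 6 treated libraries, and leaving library 1 out can only keep or raise it. Library 1 is also the one farthest out on the second component of all genes, and the part of that difference in these values was not tested.

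Among the DN libraries, library 6 held the highest value for 8 of the 10 genes, for example 51.3 CPM of Pecam1 against at most 35.7 CPM in the other 5. Leaving out library 6 likewise lowers the DN means of those genes. Without DN library 6 and Treat library 1 together, 9 genes were lower in DN than in Ctrl, where 38.4% of all genes changed in either direction. In that fit 3 genes (Tek, Tie1 and Cdh5) were lower in Treat than in DN, where 1.37% of all genes changed. Ctrl library 4, which stood apart from the other controls, lay above all 6 DN libraries for 9 of the 10 genes, Vegfa being the exception. The share of all genes for which this was so was not computed. With an indicator for the other 5 controls as a covariate, which leaves library 4 as the only reference, 2 of the 10 genes (Flt1 and Angpt1) and 5.13% of all genes were called in DN. That fit sets DN against 1 control library, which is assumed to vary like the other groups. The fitted log2 fold changes of Kdr, Tek, Tie1, Pecam1 and Cdh5 were then -1.42, -1.65, -1.29, -1.49 and -1.49. Those of Flt1 and Angpt1 were -1.46 and -1.34. For Kdr, Tie1, Pecam1 and Cdh5 they were larger in size than with all 6 controls. For Tek, Flt1 and Angpt1 they were smaller.

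**Figure D3:**
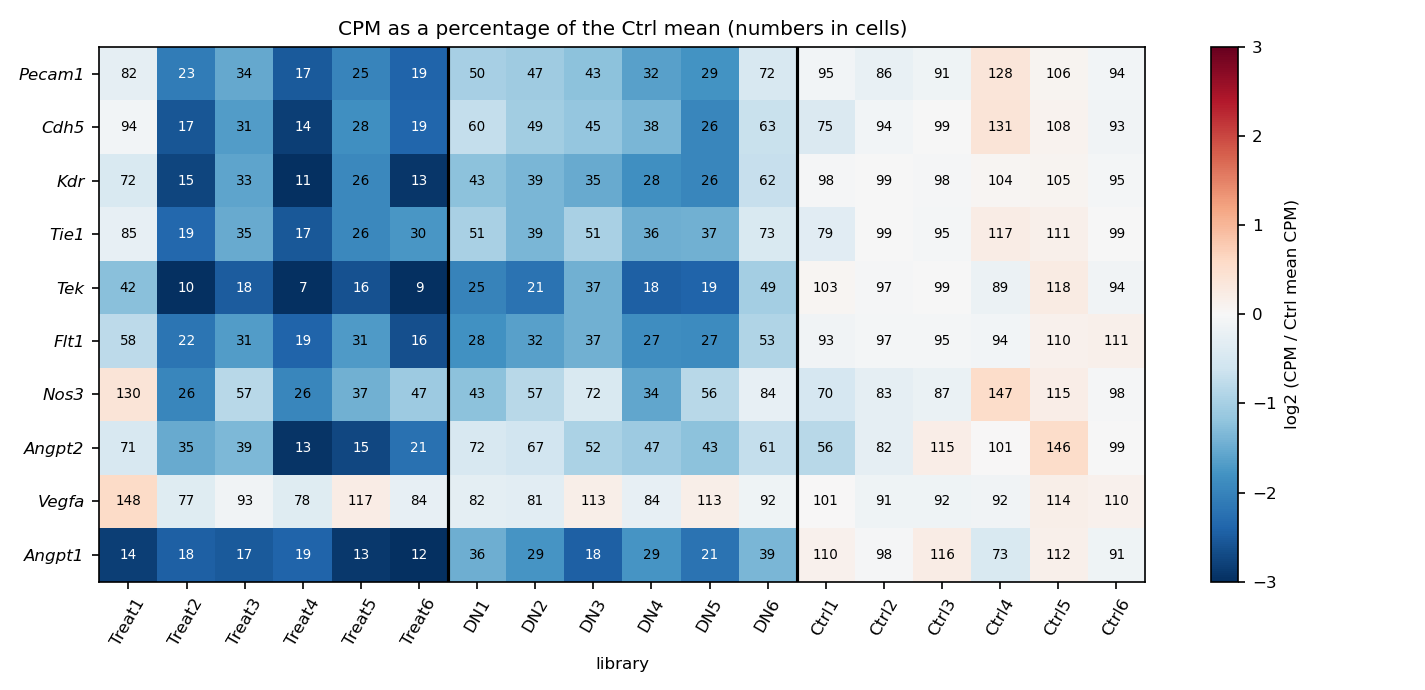
CPM of each gene (rows) in each library (columns) as a percentage of the mean of the 6 controls, with colour on a log2 scale. Pecam1 stands at 82% of the control mean in Treat library 1 and at 17% to 34% in the other treated libraries, whereas Angpt1 stands at 12% to 19% in all 6.

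Ratios of 2 genes within a library do not depend on how libraries are scaled, so 6 ratios were compared in the 3 comparisons. The tests were two-sided exact permutation tests over all splits of 6 against 6 libraries, adjusted over 18 tests, and 0.00216 is the smallest p they can give. Vegfa counts per Kdr count were 6.58, 11.4 and 19.6 (lowest, median, highest) in DN and 3.97, 4.40 and 5.15 in Ctrl (exact p = 0.00216, adjusted p = 0.00779). In Treat they were 9.15, 21.6 and 30.7, above every control (exact p = 0.00216, adjusted p = 0.00779), with an overlap with DN (exact p = 0.0758, adjusted p = 0.169). Vegfa counts per Kdr count were thus higher in each of the 12 DN and treated libraries than in any control. In this direct test the change of Kdr against Ctrl differed from that of Vegfa.

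The balance of the angiopoietins shifted in DN. The Angpt2 to Angpt1 count ratio was 1.02 to 1.85 in DN and 0.335 to 0.907 in Ctrl, with no overlap (log2 difference 1.04, SE 0.25, exact p = 0.00216, adjusted p = 0.00779). In Treat it spread from 0.453 to 3.29, with the highest value in library 1, and passed the test neither against Ctrl (log2 difference 0.86, exact p = 0.0844, adjusted p = 0.169) nor against DN (-0.18, exact p = 0.686). By the fit across all genes, Angpt1 stood at 28.9% and Angpt2 at 56.8% of its control level in DN.

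The Tek to Tie1 count ratio averaged 1.15 ± 0.19 in DN and 2.02 ± 0.355 in Ctrl (SD, n = 6 each; exact p = 0.00216, adjusted p = 0.00779). In Treat it averaged 0.956 ± 0.211, again with no overlap with Ctrl (exact p = 0.00216, adjusted p = 0.00779). In Treat library 1 it was 0.988, within the range of the other treated libraries, although both genes were high there. Nos3 counts per Pecam1 count were higher in Treat (0.191 ± 0.0545) than in Ctrl (0.117 ± 0.0166; exact p = 0.00433, adjusted p = 0.013), while in DN (0.155 ± 0.0493) the difference from Ctrl did not pass (exact p = 0.115, adjusted p = 0.188). Cdh5 counts per Pecam1 count averaged 0.459 ± 0.0803 in Treat, 0.501 ± 0.0678 in DN and 0.482 ± 0.0551 in Ctrl, and no comparison passed (adjusted p from 0.395 to 0.681). The Flt1 to Kdr ratio passed none either (adjusted p from 0.161 to 0.276). Relative to Pecam1 and Tie1, the genes thus moved by unequal amounts: Tek fell more than Tie1, and Nos3 was higher per Pecam1 count in Treat.

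**Figure D4:**
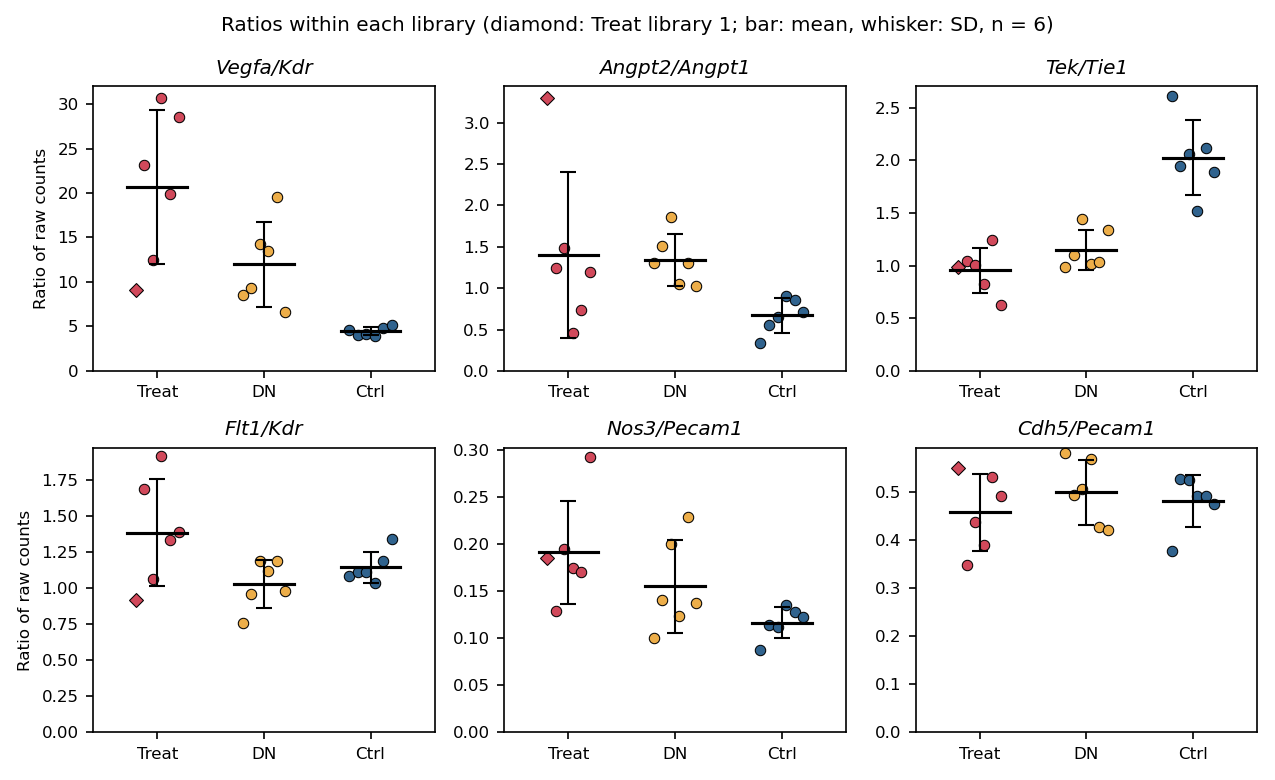
Ratios of raw counts of 2 genes within each library, with Treat, DN and Ctrl from left to right; bars are means and whiskers SD over 6 libraries, and the diamond is Treat library 1. Vegfa/Kdr and Tek/Tie1 do not overlap between either diabetic group and the controls, Angpt2/Angpt1 separates DN from Ctrl, and Cdh5/Pecam1 lies between 0.348 and 0.582 in all groups.

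Among treated and among DN animals, those that had more of one endothelial transcript tended to have more of the others, which did not hold for all pairs in Ctrl. After each gene was centred on its group means, the 15 pairs among Kdr, Flt1, Tek, Tie1, Pecam1 and Cdh5 had Pearson correlations of log2 CPM of 0.823 to 0.95 over the 18 libraries. All 15 passed a two-sided permutation test within groups (adjusted p of at most 0.0108 over 45 pairs), as did their Spearman correlations (0.701 to 0.936, adjusted p of at most 0.025). Without the 2 libraries farthest from the median, Pearson correlations were 0.408 to 0.878, and without Treat library 1 alone they were 0.612 to 0.889. Pecam1 and Cdh5 were correlated at 0.948 (Spearman 0.92; Pearson and Spearman adjusted permutation p = 0.00027 and 0.000225), and at 0.875 without DN library 6 and Treat library 1. Within single groups, given without a test, the 15 correlations ran from 0.833 to 0.993 in Treat and from 0.597 to 0.995 in DN. Within the 6 controls they ranged from -0.248 to 0.949, and no pattern held for all pairs. Each of these genes varied less in Ctrl than in the other groups.

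Angpt1 passed the same test with none of the other genes. Its 9 correlations over the 18 libraries ran from -0.431 to 0.15 (lowest adjusted permutation p = 0.117). Within single groups of 6 libraries, given without a test, they ran from -0.426 to 0.027 in Treat, from -0.794 (Vegfa) to 0.694 (Cdh5) in DN, and from -0.694 (Nos3) to 0.749 (Tek) in Ctrl. Vegfa passed with Flt1 (0.689), Tek (0.712) and Nos3 (0.664; adjusted permutation p = 0.0316, 0.0215 and 0.0317), of which only the pair with Tek also passed by Spearman correlation (0.686, adjusted permutation p = 0.0307). Without DN library 5 and Treat library 1, the 2 farthest from the median of Vegfa, the same 3 Pearson values were 0.6, 0.673 and 0.405, and without Treat library 1 alone 0.421, 0.467 and 0.378. Among 15868 other genes with a mean of at least 1 CPM, Kdr had the 5th and Cdh5 the 8th highest centred correlation with Pecam1, while Angpt1 ranked 5499 and Vegfa 1919. For Cdh5, Pecam1 ranked 3rd, Kdr 7th and Tie1 12th. Of the 5 genes most like each of Pecam1 and Cdh5, 1 in each case was among the 10 described here (Kdr and Pecam1). The first in each list had no name here: ENSMUSG00000017754 for Pecam1 (r = 0.964) and ENSMUSG00000016494 for Cdh5 (r = 0.958). These ranks describe the likeness over 18 libraries that share their scaling, and carry no test.

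**Figure D5:**
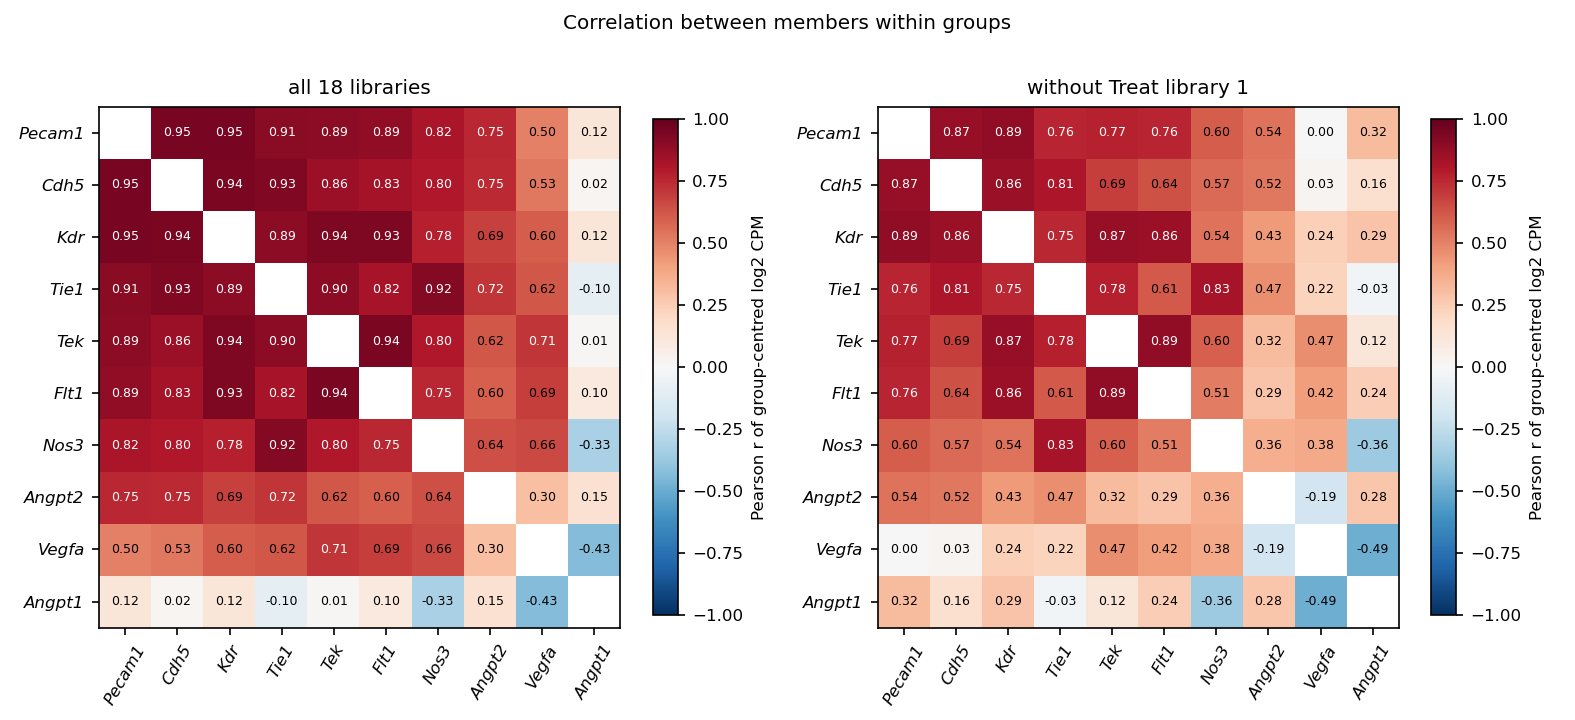
Pearson correlations of group-centred log2 CPM between the 10 genes over all 18 libraries (left) and without Treat library 1 (right). Pecam1, Cdh5, Kdr, Tie1, Tek and Flt1 form a block of 0.823 to 0.95 on the left and 0.612 to 0.889 on the right, and the row of Angpt1 reaches at most 0.15 on the left and 0.316 on the right.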

How the data were processed

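Polyadenylated kidney RNA was sequenced in 18 libraries. Per the labels' protocols, RNA was column-purified and libraries were made with a SMARTER kit. The authors deposited raw counts per gene identifier, without normalization. The genome builds, per the submitters' processing notes, were GRCm38 and mm10. The aligner, counter and strandedness were not given in the sources used here, so reads of overlapping or antisense genes may be included.

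Columns were matched to samples by library name and to groups by title. Tests used edgeR 4.0.16 in R 4.3.3 (filterByExpr, TMM, 1 coefficient per group over all 18 libraries, quasi-likelihood F-test), with Benjamini-Hochberg adjustment over 19233 genes and calls under 0.05. The fit was tested on simulated data. Standard errors and 95% intervals were derived from the F statistics. Log2 CPM used a prior count of 2, and 0.5 was added to counts before log2 ratios. Correlation tests used 100000 permutations within groups. No other identifier had counts within 3% of those of a member in every library. No 2 libraries of a group were alike within sampling noise (chi-square per degree of freedom of at least 12.8 over 45 pairs). Pooled over genes, counting noise is small beside the spread between animals at these totals. Its share was not assessed for single genes, such as Kdr in Ctrl (coefficient of variation 3.86% at 1633 to 1938 counts).

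The 10 genes, the lists and the tests were chosen with earlier results of these data known. The rule for named genes took the 10 members and the 5 genes most like each of Pecam1 and Cdh5. Its remaining part, the 3 genes of smallest adjusted p from lists of related pathways, was not applied, and the lists of cell type markers were not used (88 further symbols in the rat table in all), since 0 of 55335 identifiers matched that table. Same-numbered libraries of different groups share only a number. Alternatives were RLE factors, library totals, other filters, DESeq2 1.42.0, limma 3.58.1 voom with quality weights, fewer libraries and covariates.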

Additional observations from a re-analysis of the deposited data

Results flagged for a closer look

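In a group of 6 libraries a value was singled out when its gap to the nearest other library exceeded Dixon's 95% critical share of the group's range. Of 48 gene or ratio groups examined, 10 held such a value. The rule was applied to CPM and count ratios without a log transform, and log2 values were not examined this way. Chance marks about 1 in 20 only where groups are independent and values normally distributed. Several of these genes are correlated, so the number flagged cannot be read against that share. Of the 10 values, 8 concern Treat library 1. Kdr stood there at 44.0 CPM (next highest treated library, 20.4), Flt1 at 40.5 CPM (21.7), Tek at 26.3 CPM (11.1) and Tie1 at 26.6 CPM (11.0). Pecam1 stood at 58.7 CPM (24.4), Cdh5 at 32.3 CPM (10.7) and Nos3 at 10.9 CPM (4.75). The Angpt2 to Angpt1 count ratio there was 3.29 (1.49). In DN library 6, Flt1 stood at 37.1 CPM (next highest DN library, 25.5). The Cdh5 to Pecam1 count ratio was 0.378 in Ctrl library 1 (next lowest control, 0.475). The source of these differences was not tested.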

How the results depend on the processing

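Of 870 member fold changes recomputed under 29 alternatives, 811 kept their call or stayed uncalled, 27 lost and 32 gained a call, and no call changed sign. The calls on Flt1 and Angpt1 between DN and Ctrl held in all 29. The number of members called between Treat and DN was 1. It became 5 with limma voom with quality weights, which let libraries that vary more count less. It was 0 with only the 12 libraries compared in edgeR, where 2 members had an unadjusted p under 0.05. DESeq2, run only over all 18 libraries, called 1. The number was 6 without Ctrl library 4 and Treat library 1, and 3 without DN library 6 and Treat library 1. With single libraries left out it was 1 to 6, the 6 being without Treat library 1. All genes called between Treat and DN numbered 268. They were 762 with library totals (641 higher and 121 lower, against 103 and 165, with the median of all genes at 0.13). They were 119 without a filter, 786 with DESeq2 and 739 with limma voom with quality weights. With the 12 libraries they were 116, and without Ctrl library 4 and Treat library 1 they were 593. With single libraries left out they ranged from 97 (DN 4) to 446 (Treat 1), and were 164 without Ctrl 6, 152, 119 and 125 without DN 1, 2 and 6, and 119 and 160 without Treat 3 and 6. For Treat versus Ctrl, library totals gave 64.3% higher calls, against 51.2%. With the indicator for 5 controls, 2 members and 986 genes were called between DN and Ctrl, and 1862 genes between Treat and Ctrl, against 8629. With single libraries left out, log2 ratio differences ranged from 0.30 to 0.51 for Flt1/Kdr (Treat versus DN), which passed without Treat 1 (adjusted exact p = 0.039), from 0.56 to 1.13 for Angpt2/Angpt1 (Treat versus Ctrl), which passed without Treat 4 (0.0223), and from 0.25 to 0.48 for Nos3/Pecam1 (DN versus Ctrl), which passed without DN 1 (0.0334).

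With the replicate number as a block, 0 members (edgeR; 3 at an unadjusted p under 0.05; DESeq2, run only over all 18 libraries and without the block, called 1) and 117 genes were called between Treat and DN, Angpt1 having an adjusted p of 0.0764. The block changed no other member's call. Same-numbered libraries correlated at -0.189 to 0.185 in their deviations from group means, and 2 of 18 correlated best with their own number, so the numbers were not taken to pair animals.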
